A study of Homo sapiens with 9 samples.

Results

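The comparison of LIMp27 siRNA-1 with control siRNA comprised 6 of the 9 RNA-seq libraries of the study and all genes read in them. WiDr cells, an established human colon adenocarcinoma line with mutant p53, received 100 nM of control siRNA or of LIMp27 siRNA-1, and RNA taken 24 h later gave 3 libraries of each condition. LIMp27 is a long noncoding RNA, and the comparison asks which transcripts differ once it is targeted. The 3 further libraries, which received LIMp27 siRNA-2, were used only for a direct test of whether the siRNAs differ. The siRNA-1 libraries held 16609005 to 21524623 reads counted to genes and the control libraries 17127827 to 18655325. Of 23981 genes listed, 14347 had enough reads to be tested. At an adjusted p under 0.05 from edgeR, 3802 genes were higher with LIMp27 siRNA-1 (26.5% of those tested) and 4066 were lower (28.3%), 54.8% in either direction. Scaled by library size alone, 4974 were higher and 3017 lower. Whether called or not, 29.1% of tested genes were higher and 30.5% lower with no overlap between the 3 and 3 libraries. The study describes its RNA-seq repeats as biological. The labels do not say whether each library came from its own culture, and if they did not, the p-values measure only the spread between these libraries, which may be technical.

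Most of the differences were small. The median log2 fold change was 0.48 among the genes called higher and −0.38 among those called lower, and 1946 called genes differed by less than 1.2-fold. A difference of at least 2-fold was reached by 627 higher genes (4.37% of those tested) and 322 lower genes (2.24%). Only 5 called genes rose and 11 fell by at least 8-fold. The plot of change by level shows these few genes standing apart from a broad band around 0. The targeted gene itself, LINC01356, had 0, 0 and 2 reads in the control libraries and none in the siRNA-1 libraries, so the knockdown could not be checked at this depth. The study reports that it checked the knockdown in WiDr cells by qPCR. From these 6 libraries, a change with LIMp27 siRNA-1 cannot be told apart from an effect of this siRNA on other transcripts.

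**Figure D1:**
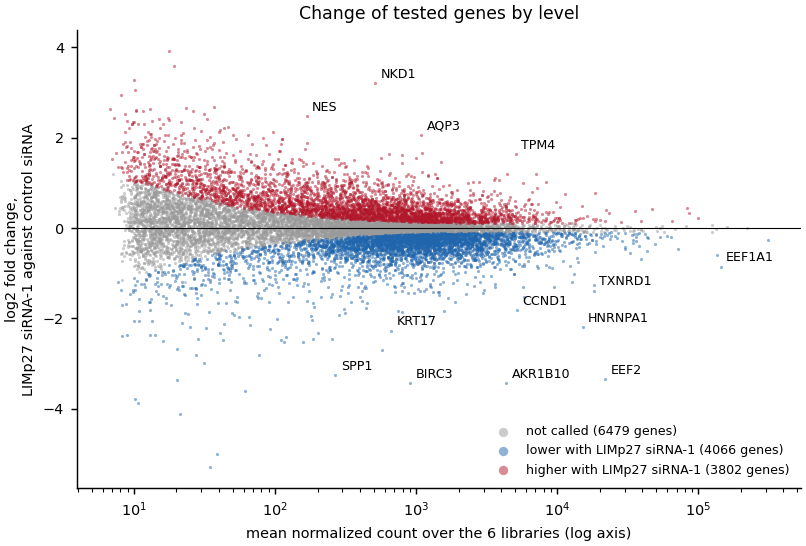
Log2 fold change of each tested gene with LIMp27 siRNA-1 against control siRNA (vertical axis) by its mean TMM-normalized count over the 6 libraries (horizontal log axis), 1 point per gene, colored by the call at an adjusted p under 0.05 from edgeR. EEF2, AKR1B10, BIRC3 and HNRNPA1 lie far below the band of abundant genes, and NKD1, NES and AQP3 far above it.

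These are bulk libraries, so a change in the share of cells that carry a transcript and a change within each cell cannot be told apart. Epithelial markers were read in both conditions. EPCAM, KRT8, KRT18, KRT19 and VIL1 were abundant, while CDH17, an intestinal cadherin, had at most 1 read per library and CDX2, an intestinal transcription factor, a mean of 28.6 normalized counts with control siRNA. GPA33 is not listed. Of the 8 epithelial markers tested, 5 fell and 2 rose, with a median log2 fold change of −0.26, and without control replicate 3 only 1 rose. Of the 10 fibroblast, 10 leukocyte and 10 endothelial markers sought, 2, 1 and 1 had enough reads to be tested. The fibroblast markers LUM and COL1A1 had control means of 29.5 and 13.2 normalized counts, the pan-leukocyte gene PTPRC had 0 to 3 reads and the endothelial gene PECAM1 0 or 1. LYZ, which secretory epithelial cells also make, was abundant and had a log2 fold change of −0.033 (edgeR adjusted p = 0.52). ESAM, the endothelial marker with reads, had a log2 fold change of −0.35 (edgeR adjusted p = 8.7e-06).

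Several of the pathways described here have textbook roles in colon epithelium. NF-kB is a family of dimeric transcription factors held in the cytoplasm by inhibitory IkB proteins, and after release it switches on chemokines, adhesion molecules, anti-apoptotic genes and its own inhibitors. Protein synthesis rests on ribosomes that are assembled in the nucleolus and on initiation and elongation factors, and growing cancer cells keep these genes highly expressed. Wnt signaling maintains intestinal stem cells and switches on its own inhibitors, among them NKD1 and AXIN2.

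Transcripts of the NF-kB pathway were lower with LIMp27 siRNA-1. Of 36 tested genes in a list of NF-kB factors and targets, 31 fell, 3 rose and 2 did not pass the test, where 28.3% of all tested genes fell. Their median log2 fold change was −0.72, against 0.00094 over all tested genes. Scaled by library size alone, 26 fell and 3 rose. The letters to which NF-kB dimers are known to bind are called kappa B sites. Promoters of 31 of the 36 genes were in a RefSeq promoter table of build GRCh38.p14. In the 250 bases before the start, 13 of these 31 (41.9%) held GGGNNNTTCC on either strand, against 5.61% of all 27305 promoters in the table. Among tested genes the share was 6.61%, with 6.5% for those called higher, 7.29% for those called lower and 6.16% for those not called. The list was chosen as known NF-kB targets, so its share says nothing of the change with LIMp27 siRNA-1. The shorter form GGAANTTCC, which can overlap with it, was held by 9 of 31 (29.0%) against 0.83%. The promoters of 6 genes whose values follow are printed to show these letters. All 6 genes fell and hold a match. Of 27 promoters of list members called lower, 12 held GGGNNNTTCC, and CXCL2, which was not called, holds both forms. Capitals mark every match to either form on either strand, and each sequence runs 5′ to 3′ and ends 1 base before the start.
BIRC3 (chr11:102317234-102317483, plus strand): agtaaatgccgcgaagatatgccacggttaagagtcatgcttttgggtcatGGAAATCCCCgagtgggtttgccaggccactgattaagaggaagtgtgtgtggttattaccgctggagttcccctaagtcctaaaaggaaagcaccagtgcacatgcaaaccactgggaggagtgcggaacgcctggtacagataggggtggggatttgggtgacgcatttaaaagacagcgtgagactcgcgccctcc
CXCL8 (chr4:73740319-73740568, plus strand): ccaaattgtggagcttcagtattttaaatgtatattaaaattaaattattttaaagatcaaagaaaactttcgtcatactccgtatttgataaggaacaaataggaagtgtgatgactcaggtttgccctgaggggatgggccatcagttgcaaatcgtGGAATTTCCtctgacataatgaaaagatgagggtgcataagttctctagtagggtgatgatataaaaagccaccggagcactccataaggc
CXCL1 (chr4:73869143-73869392, plus strand): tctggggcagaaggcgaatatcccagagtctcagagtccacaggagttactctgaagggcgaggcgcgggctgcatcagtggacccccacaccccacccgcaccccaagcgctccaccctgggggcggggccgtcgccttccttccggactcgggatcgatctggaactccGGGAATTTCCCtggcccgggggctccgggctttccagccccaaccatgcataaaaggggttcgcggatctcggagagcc
CCL20 (chr2:227813592-227813841, plus strand): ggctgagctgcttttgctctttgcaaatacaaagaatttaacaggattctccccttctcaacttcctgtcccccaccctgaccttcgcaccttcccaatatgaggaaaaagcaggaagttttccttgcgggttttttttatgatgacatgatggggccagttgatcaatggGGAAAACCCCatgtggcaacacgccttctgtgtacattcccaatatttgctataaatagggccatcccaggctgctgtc
TNFAIP3 (chr6:137867009-137867258, plus strand): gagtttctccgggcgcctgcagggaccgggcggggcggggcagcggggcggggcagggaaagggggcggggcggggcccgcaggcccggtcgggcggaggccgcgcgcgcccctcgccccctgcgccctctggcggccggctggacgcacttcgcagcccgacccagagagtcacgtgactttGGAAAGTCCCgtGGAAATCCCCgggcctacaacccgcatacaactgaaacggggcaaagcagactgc
NFKBIA (chr14:35404750-35404999, minus strand): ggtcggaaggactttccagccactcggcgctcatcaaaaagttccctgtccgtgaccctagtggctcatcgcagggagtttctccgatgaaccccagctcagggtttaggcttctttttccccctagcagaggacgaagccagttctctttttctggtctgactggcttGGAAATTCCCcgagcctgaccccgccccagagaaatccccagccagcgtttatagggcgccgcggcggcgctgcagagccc

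BIRC3 encodes an inhibitor of apoptosis that acts in signaling from tumor necrosis factor receptors. It had 1622, 1701 and 1666 normalized counts with control siRNA and 162, 147 and 152 with LIMp27 siRNA-1. The siRNA-1 mean was 9.21% of the control mean with no overlap between the groups, and the log2 fold change was −3.44 ± 0.069 (SE, edgeR adjusted p = 1.1e-25). The chemokine genes of the promoters printed above fell less. CXCL8, which attracts neutrophils, had 4314, 4529 and 4259 normalized counts with control siRNA and 1762, 1691 and 1582 with LIMp27 siRNA-1, a log2 fold change of −1.38 (edgeR adjusted p = 1.0e-19). CCL20, which attracts cells that carry CCR6, was read less often, with 64.1, 66.8 and 74.2 normalized counts with control siRNA and 23.9, 14.4 and 25.8 with LIMp27 siRNA-1, and its log2 fold change was −1.67 (edgeR adjusted p = 1.0e-06). CXCL1 had 129, 155 and 149 normalized counts with control siRNA and 90.1, 73.8 and 65.8 with LIMp27 siRNA-1, and its log2 fold change was −0.93. CXCL3 likewise fell (−0.89 on the log2 scale), while their close relative CXCL2 had a log2 fold change of −0.062 (edgeR adjusted p = 0.82) with overlapping groups. CXCL1, CXCL2 and CXCL3 are near-identical in parts of their sequence, so reads could be split between them.

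Most inhibitors of NF-kB signaling fell as well. TNFAIP3, which encodes the deubiquitinase A20, had 486, 472 and 463 normalized counts with control siRNA and 175, 182 and 228 with LIMp27 siRNA-1. All 3 siRNA-1 libraries lay below all control libraries, and the log2 fold change was −1.27 ± 0.095 (SE, edgeR adjusted p = 2.9e-12). NFKBIA, which encodes the inhibitor IkB-alpha, had 1270.3, 1248 and 1225 normalized counts with control siRNA and 788, 761 and 821 with LIMp27 siRNA-1 (log2 fold change −0.66). NFKBIE had a log2 fold change of −0.84, called lower, and NFKBIB was the exception, with a rise of 0.48 (edgeR adjusted p = 1.1e-07). NFKBIZ, a related gene not counted here as an inhibitor, had a log2 fold change of −0.66, also called lower. The factors themselves fell too. NFKB1 had a log2 fold change of −0.64, NFKB2 one of −0.50, REL one of −0.39, RELA one of −0.31 and RELB one of −0.25, all called lower by edgeR. Among other targets, TNF, the cytokine that activates the pathway, had 90.0, 116 and 118 normalized counts with control siRNA and 25, 26.8 and 21.7 with LIMp27 siRNA-1, and ICAM1, an adhesion molecule for leukocytes, had 428, 455 and 450.5 normalized counts with control siRNA and 206, 212 and 241 with LIMp27 siRNA-1. Neither shows overlap between the groups.

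**Figure D2:**
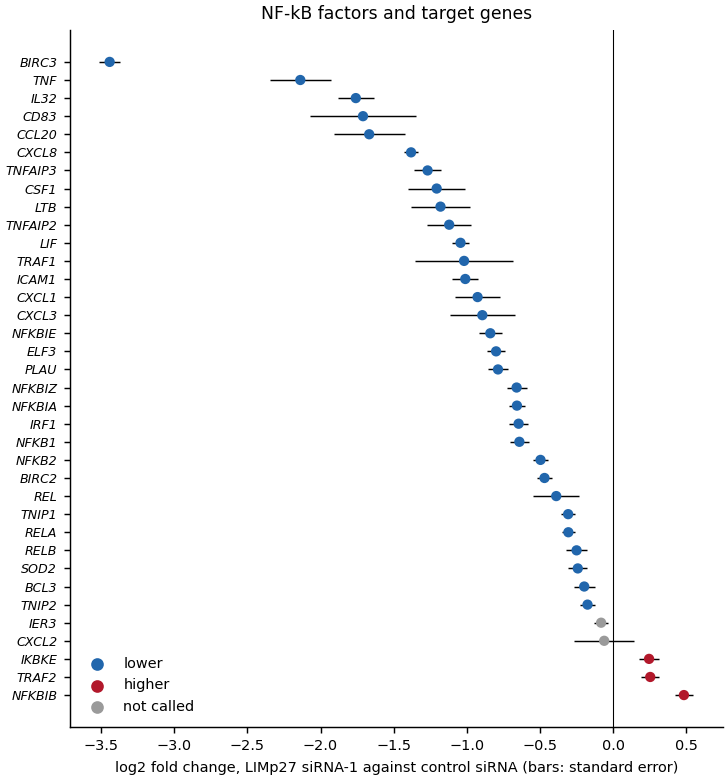
Log2 fold changes of the 36 tested NF-kB factors and target genes with LIMp27 siRNA-1 against control siRNA (horizontal axis), 1 gene per row; bars are standard errors from edgeR on 3 libraries per condition. Points lie left of 0 for all but 3 genes, and BIRC3 lies at −3.44.

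A wider list of chemokine, cytokine and interleukin genes, which shares 8 members with the NF-kB list, gave a like count. Of 32 tested, 21 fell and 1 rose, with a median log2 fold change of −0.64. SPP1, which encodes the secreted adhesion protein osteopontin, had 467, 469.8 and 514 normalized counts with control siRNA and 55.4, 47.9 and 49.2 with LIMp27 siRNA-1, and its log2 fold change was −3.25 ± 0.12 (SE, edgeR adjusted p = 1.4e-19). IL1RN, the natural antagonist of the interleukin 1 receptor, had 436, 439 and 406 normalized counts with control siRNA and 73.8, 74.7 and 83.3 with LIMp27 siRNA-1 (log2 fold change −2.46). IL1RAP, a coreceptor of the same system, fell too, with a log2 fold change of −1.52 (edgeR adjusted p = 9.3e-13). In none of these 3 genes do the groups overlap, and 30.5% of all tested genes were likewise lower without overlap. IL6ST, the shared signal transducer of interleukin 6 type cytokines, had 3145, 3218 and 3206 normalized counts with control siRNA and 1324, 1436 and 1312 with LIMp27 siRNA-1. CXCL16, IL32, IL18, LIF and CSF2 were also called lower, with log2 fold changes of −1.35, −1.76, −1.19, −1.04 and −1.98. The riser was IL17RC, a receptor subunit, with a log2 fold change of 0.81, and without control replicate 3 there were 2.

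Interferon-stimulated and antigen presentation genes were lower in part. Of 27 interferon-stimulated genes tested, 14 fell and 4 rose, with a median log2 fold change of −0.25 (12 and 7 by library size alone). Of 20 antigen presentation genes, 9 fell and 1 rose, and by library size alone 6 fell and 4 rose (2 rose without control replicate 1). TAP1 and TAP2, which encode the subunits of the peptide transporter that loads HLA class I, had log2 fold changes of −1.03 and −1.22, and B2M, the light chain of class I, one of −0.19, a call that did not hold by library size alone. HLA-B and HLA-C, which encode heavy chains, had log2 fold changes of −0.039 and −0.095, neither called, and they share reads with each other. ISG15 rose, with a log2 fold change of 0.56 (edgeR adjusted p = 1.0e-04). Of 17 complement and coagulation genes, 7 fell and 5 rose, and by library size alone 7 fell and 8 rose. CD55, which protects cells from complement, had 8242, 8729 and 9015 normalized counts with control siRNA and 2977, 3103 and 2944 with LIMp27 siRNA-1. Its log2 fold change was −1.53 ± 0.045 (SE, edgeR adjusted p = 2.0e-21), and CD46 and CD59, which act beside it, had log2 fold changes of −0.60 and −0.58, both called lower. C4BPB, the beta chain of a complement inhibitor, was among the largest falls, with 973, 1001 and 1019.5 normalized counts with control siRNA and 152, 159 and 151 with LIMp27 siRNA-1 (log2 fold change −2.70).

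Among genes of protein synthesis, EEF2 fell most. It encodes the factor that moves the ribosome along the message, and it lies at chromosome 19, 3976056 to 3985469 of GRCh38. It had 40650, 40747 and 38364 normalized counts with control siRNA and 4077, 3444 and 4247 with LIMp27 siRNA-1. The siRNA-1 mean was 9.83% of the control mean, and the log2 fold change was −3.35 ± 0.058 (SE, edgeR adjusted p = 2.4e-27). EEF1A1, which brings charged tRNA to the ribosome, had 186100, 186390 and 185130 normalized counts with control siRNA and 101690, 101940 and 104180 with LIMp27 siRNA-1, a log2 fold change of −0.86 (edgeR adjusted p = 8.2e-17). EEF1A1 has many processed pseudogenes, so its count is uncertain. The related EEF1A2 had a log2 fold change of 0.093 (edgeR adjusted p = 0.87), and EIF5A2, which helps ribosomes past difficult sequences, one of −1.11 (edgeR adjusted p = 6.9e-08). Over the 24 tested elongation and termination factors, 14 fell and 1 rose, with a median log2 fold change of −0.21 (11 and 5 by library size alone). The riser was DPH3, which acts in making the diphthamide residue that EEF2 carries, with a log2 fold change of 0.52, while DPH2 and DPH7 of the same pathway had −0.20 and −0.43, both called.

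Initiation factors fell by smaller amounts. Of 46 tested, 31 fell and 4 rose, with a median log2 fold change of −0.24, and by library size alone 27 fell and 8 rose. EIF4EBP2, an inhibitor of the cap-binding factor EIF4E, fell, with a log2 fold change of −0.86. EIF5, which triggers GTP hydrolysis at the start codon, had 6191, 6347 and 6203 normalized counts with control siRNA and 3512, 3974 and 3762 with LIMp27 siRNA-1, a log2 fold change of −0.74 (edgeR adjusted p = 5.7e-14). The subunits of the tRNA carrier eIF2, EIF2S1, EIF2S2 and EIF2S3, had log2 fold changes of −0.59, −0.50 and −0.30, all called lower. In the large complex eIF3 the subunits moved apart, since EIF3J fell, with a log2 fold change of −0.56, and EIF3F rose, at 0.54. DENR and MCTS1, which form a dimer that recycles ribosomes, both rose, with log2 fold changes of 0.57 and 0.37. Of 22 cytosolic aminoacyl-tRNA synthetases and their scaffold proteins, 15 fell and 1 rose (median −0.28), with the lowest values for GARS (log2 fold change −0.58) and TARS (−0.55) and a rise for HARS (0.38). Without control replicate 3, 2 of them were higher.

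Nucleolar genes of ribosome assembly gave, with the NF-kB list, the most lopsided counts of the lists with at least 10 tested members. Of 76 tested, 63 fell, 2 rose and 11 were not called, with a median log2 fold change of −0.35 (53 and 4 by library size alone). UTP20, a scaffold of the early small subunit, had 1399.6, 1525 and 1369.9 normalized counts with control siRNA and 742, 816 and 774 with LIMp27 siRNA-1. DDX21, an RNA helicase of the nucleolus, had 9312, 9573 and 8641 normalized counts with control siRNA and 4839.5, 5196 and 5298 with LIMp27 siRNA-1. The groups do not overlap in either gene, and the log2 fold changes were −0.88 (edgeR adjusted p = 1.8e-13) and −0.84 (edgeR adjusted p = 3.6e-15). NCL and NPM1, the abundant nucleolar proteins nucleolin and nucleophosmin, fell less, with log2 fold changes of −0.45 and −0.40. Subunits of RNA polymerase I split, with POLR1B and POLR1E called lower (log2 fold change −0.27 and −0.33) and POLR1A and POLR1C not called (−0.089 and 0.0053). The genes called higher were NOLC1 and MPHOSPH10, with log2 fold changes of 0.16 and 0.17. Without control replicate 2 none of the list was called higher, and 1 was under DESeq2, without control replicate 1 and without siRNA-1 replicate 2.

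Cytosolic ribosomal protein genes changed little. Of 79 tested, 36 fell and none rose by edgeR, yet the median log2 fold change was only −0.10, and by library size alone 12 fell and 9 rose. Leaving out control replicate 1 left 22 lower, and leaving out siRNA-1 replicate 2 left 21. At an unadjusted p under 0.05 from edgeR, 39 had a negative and 0 a positive log2 fold change, and DESeq2 also called 36 lower and 0 higher. The lowest called values were those of RPL7 (log2 fold change −0.33) and RPL17 (−0.32), and ribosomal protein genes have many processed pseudogenes with which reads may be shared. Mitochondrial ribosomal protein genes were mixed, with 25 of 78 lower and 14 higher, and the balance turned to 19 lower and 26 higher by library size alone.

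**Figure D3:**
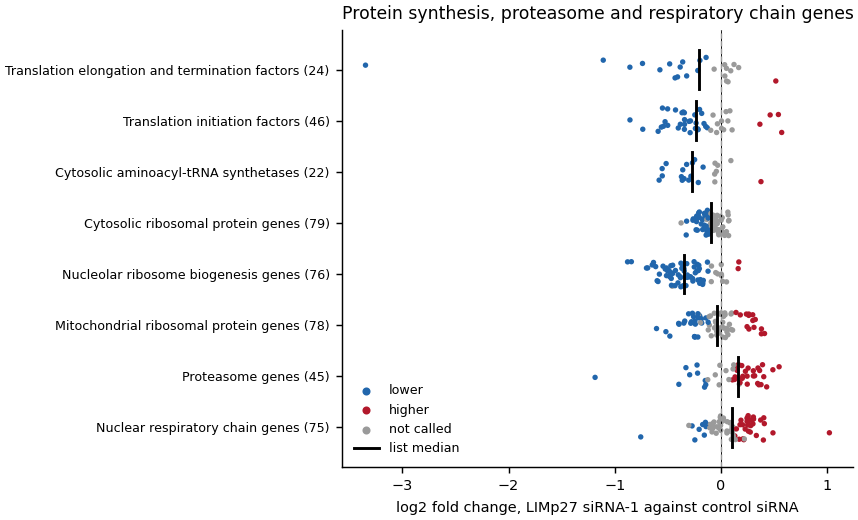
Log2 fold changes with LIMp27 siRNA-1 against control siRNA (horizontal axis) of the genes of 8 lists (rows, number tested in parentheses), 1 point per gene, colored by the call from edgeR; black bars are list medians and the dashed line is the median of all tested genes. Nucleolar genes center at −0.35, ribosomal protein genes at −0.10 and proteasome genes at 0.17, and EEF2 stands apart at −3.35.

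Chaperone genes and proteasome genes mostly moved in opposite directions. Of 43 heat shock and chaperonin genes, 26 fell and 3 rose, with a median log2 fold change of −0.14 (18 and 7 by library size alone). HSPA8, the constitutive Hsc70 chaperone, had 48983, 51737 and 43902 normalized counts with control siRNA and 27086, 30739 and 32156 with LIMp27 siRNA-1 (log2 fold change −0.68). Of 45 proteasome genes, 27 rose and 9 fell, with a median of 0.17 (31 and 6 by library size alone). The rises were small, and the largest in the catalytic core was that of PSMB4, with 3675, 3584 and 3569.6 normalized counts with control siRNA and 5557, 5036 and 5243 with LIMp27 siRNA-1 (log2 fold change 0.55). PSMD1, a scaffold subunit of the regulatory particle, went the other way, with 3869.8, 4000.3 and 3897 normalized counts with control siRNA and 1650.4, 1729.9 and 1790.0 with LIMp27 siRNA-1. Its log2 fold change was −1.19 ± 0.046 (SE, edgeR adjusted p = 1.3e-18), and PSME3, an activator of the core, had −0.40, called lower. Genes of the nuclear-encoded respiratory chain also rose more often than they fell, with 30 of 75 higher and 9 lower and a median of 0.11. By library size alone 45 rose and 2 fell, and without control replicate 1 the number lower was 5. SDHD, a membrane anchor of complex II, fell, with a log2 fold change of −0.76, while SDHC, its partner, rose, at 0.23. Of the 13 respiratory genes encoded in mitochondrial DNA, 2 rose, 1 fell and 10 were not called, and by library size alone or without control replicate 3, 6 rose and 1 fell. Without control replicate 2 or siRNA-1 replicate 1, 2 fell. The mitochondrial share of reads was 7.24% to 8.64% with control siRNA and 7.82% to 8.93% with LIMp27 siRNA-1.

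Genes of the oxidative stress factor NRF2 fell in the majority. Of 37 tested, 23 fell and 6 rose, with a median log2 fold change of −0.35. AKR1B10, an aldo-keto reductase that reduces retinal and lipid aldehydes, had 8012, 7956 and 7931 normalized counts with control siRNA and 767, 681 and 762 with LIMp27 siRNA-1. The siRNA-1 libraries kept 9.25% of the control level, and the log2 fold change was −3.44 ± 0.051 (SE, edgeR adjusted p = 8.3e-29). TXNRD1, thioredoxin reductase, had 25996, 26887 and 25598 normalized counts with control siRNA and 9275, 10430 and 10243 with LIMp27 siRNA-1, and PRDX1, a peroxidase fed by the same system, had 17416, 17114 and 18500 normalized counts with control siRNA and 8419, 7172 and 7692 with LIMp27 siRNA-1. Their log2 fold changes were −1.39 (edgeR adjusted p = 2.6e-20) and −1.19 (edgeR adjusted p = 5.3e-18). The glutathione genes did not move together, since GCLC, the catalytic subunit of glutamate-cysteine ligase, fell, with a log2 fold change of −0.75, and GCLM, its modifier subunit, was not called (−0.051). HMOX1, a classical NRF2 target, was likewise not called (log2 fold change −0.063). NFE2L2, which encodes NRF2, fell, with a log2 fold change of −0.79, and KEAP1, which marks NRF2 for degradation, rose, at 0.16. AKR1C1, AKR1C2 and AKR1C3 were called lower at log2 fold changes of −0.63, −0.94 and −0.48 but are near-identical copies, so the split between them is uncertain.

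Detoxifying genes beyond NRF2 included the UGT1A cluster, whose members add glucuronic acid to bilirubin and drugs. UGT1A10 had 1166, 1206 and 1088 normalized counts with control siRNA and 349.6, 295 and 322 with LIMp27 siRNA-1, and UGT1A6 and UGT1A1 had log2 fold changes of −1.77 and −1.65 beside its −1.84. These genes share their last exons, so they are not separate measurements. ALDH3A1, an aldehyde dehydrogenase, had 517, 471 and 435 normalized counts with control siRNA and 154, 119.7 and 139 with LIMp27 siRNA-1 (log2 fold change −1.79). Over the drug metabolism list 10 of 26 genes fell and 12 rose, the risers including CYP3A5 (log2 fold change 1.0).

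Genes of amino acid, nucleotide and sugar metabolism were mostly lower. Of 30 targets of ATF4, the factor that answers amino acid shortage, 21 fell and 2 rose, with a median log2 fold change of −0.32. PSAT1, an enzyme of serine synthesis, had 4443, 4288 and 4247 normalized counts with control siRNA and 1598, 1551 and 1619 with LIMp27 siRNA-1. The groups do not overlap and are narrow, and the log2 fold change was −1.44 ± 0.046 (SE, edgeR adjusted p = 9.7e-21). The neighboring step, PHGDH, fell, with a log2 fold change of −0.24, and PSPH, the last step, was not called (−0.12). CHAC1, which degrades glutathione, and SLC7A11, the cystine importer, fell, with log2 fold changes of −1.06 and −1.03, and ATF4 itself at −0.31. TRIB3, another target, rose, with a log2 fold change of 0.14, a call that was lost under DESeq2, without control replicate 1 or 2 and without siRNA-1 replicate 3, where 1 gene of the list was higher. In a list of 37 genes of serine, folate and nucleotide synthesis, which shares PSAT1 and 4 further genes with the ATF4 list, 25 fell and 4 rose. They include IMPDH1 (log2 fold change −0.78) of guanine synthesis, PPAT (−0.73), the entry to purine synthesis, and CTPS1 (−0.58) of cytidine synthesis. The subunits of ribonucleotide reductase went against the list, with RRM1 at a log2 fold change of 0.17 and RRM2 at 0.32, both called higher.

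Of 25 glycolysis and lactate genes, 17 fell and 2 rose, with a median log2 fold change of −0.22, and by library size alone 11 fell and 3 rose. HK2, the first enzyme of glycolysis in many tumors, had 1832, 1978 and 1936 normalized counts with control siRNA and 912, 927 and 932 with LIMp27 siRNA-1. SLC2A1, the glucose transporter GLUT1, had 15782, 17019 and 14391 normalized counts with control siRNA and 8539.9, 8833 and 8798 with LIMp27 siRNA-1, and their log2 fold changes were −1.05 (edgeR adjusted p = 2.7e-16) and −0.85 (edgeR adjusted p = 7.8e-15). LDHA, lactate dehydrogenase, fell, with a log2 fold change of −0.50, while GAPDH rose, at 0.15, and PKM was not called (0.0065). Of 26 hypoxia response genes 15 fell and 3 rose, with EGLN3, an oxygen-sensing hydroxylase, at a log2 fold change of −1.31, and CA12 and CA9, carbonic anhydrases of the cell surface, at −1.25 and 0.57, so that these relatives were called in opposite directions. Of 28 cholesterol synthesis genes 17 fell and 5 rose (13 and 9 by library size alone). SQLE, an enzyme of the pathway, fell, with a log2 fold change of −0.51. INSIG1, which restrains the pathway, rose, with a log2 fold change of 0.21, and its relative INSIG2 fell, at −0.68.

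Adhesion and cell shape genes held some of the largest changes. Of 25 genes of YAP and TEAD, the effectors of the Hippo pathway, 17 fell and 2 rose, with a median log2 fold change of −0.41. WWTR1, which encodes the coactivator TAZ, had 106, 106 and 129.9 normalized counts with control siRNA and 7.60, 15.3 and 5.0 with LIMp27 siRNA-1, a log2 fold change of −3.61 (edgeR adjusted p = 2.8e-12). YAP1, its relative, had 2718, 2841 and 2560.5 normalized counts with control siRNA and 1603, 1778 and 1646 with LIMp27 siRNA-1, and fell, with a log2 fold change of −0.69. Of the secreted YAP targets CTGF and CYR61, CTGF was not called (log2 fold change −0.16) and CYR61 fell, at −0.43. Among the DNA-binding partners, TEAD1 fell, with a log2 fold change of −0.31, TEAD3 and TEAD2 rose, at 0.29 and 1.25, and TEAD4 was not called (−0.16). FRMD6, an upstream regulator of the pathway, was among the largest falls, with 333, 351 and 329.9 normalized counts with control siRNA and 65.1, 76.6 and 61.7 with LIMp27 siRNA-1 (log2 fold change −2.32).

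Of 32 integrin and matrix genes, 19 fell and 10 rose. ITGA2, the collagen receptor subunit, had 3552, 3828 and 3536 normalized counts with control siRNA and 1383, 1611 and 1475 with LIMp27 siRNA-1, a log2 fold change of −1.29 (edgeR adjusted p = 4.1e-18). LAMA3 and LAMB3, which encode laminin chains that anchor epithelia to their base, had log2 fold changes of −0.86 and −0.62, both called lower. TNC, the matrix protein tenascin C, rose, with 298, 329.6 and 310.3 normalized counts with control siRNA and 942, 961 and 998 with LIMp27 siRNA-1 and a log2 fold change of 1.63 (edgeR adjusted p = 7.4e-18). The proteases ADAM19 and MMP14 were higher, with log2 fold changes of 1.67 and 0.79, and so was TGFBI, a secreted adhesion protein, at 1.17. LOXL4, which crosslinks collagen, had 224, 292 and 283 normalized counts with control siRNA and 49.9, 40.2 and 49.2 with LIMp27 siRNA-1 (log2 fold change −2.52).

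Of 33 junction genes, 19 fell and 7 rose. CLDN1, a tight junction strand protein, had 1224, 1298 and 1203 normalized counts with control siRNA and 327, 346 and 352 with LIMp27 siRNA-1, a log2 fold change of −1.86 (edgeR adjusted p = 9.1e-20). OCLN and TJP1, its partners at the tight junction, fell, with log2 fold changes of −0.92 and −0.69, and DSP and DSG2, of desmosomes, at −0.45 and −0.71. PERP, a desmosomal membrane protein, rose, with 2385, 2227 and 2226 normalized counts with control siRNA and 4758, 4977 and 4988 with LIMp27 siRNA-1 (log2 fold change 1.11). Of 13 keratin genes, 9 fell and 1 rose. KRT17, a keratin of stressed and wounded epithelia, had 1159, 1112 and 1035 normalized counts with control siRNA and 184, 232 and 260.0 with LIMp27 siRNA-1, and KRT13 had 199.7, 174 and 187 normalized counts with control siRNA and 33.7, 29.7 and 35.8 with LIMp27 siRNA-1. Their log2 fold changes were −2.28 (edgeR adjusted p = 4.0e-19) and −2.49 (edgeR adjusted p = 1.4e-13). The simple epithelial pair KRT8 and KRT18 fell, with log2 fold changes of −0.60 and −0.47, and the only riser, KRT10 (0.16), was not called by DESeq2 nor without control replicate 3, siRNA-1 replicate 1 or siRNA-1 replicate 2. Keratins are a multigene family, so reads may be shared. In the actin cytoskeleton 25 of 49 genes fell and 12 rose (15 and 15 by library size alone). TPM4, a tropomyosin, had the highest counts of the 15 largest rises, with 2536, 2437 and 2450.2 normalized counts with control siRNA and 7317, 7965 and 7664 with LIMp27 siRNA-1 and a log2 fold change of 1.63 ± 0.045 (SE, edgeR adjusted p = 5.2e-22), while TPM1, TPM2 and TPM3 had log2 fold changes of −0.19, 0.038 and −0.037, of which TPM1 was called. TUBA1A and NES, which encode an alpha-tubulin and the intermediate filament nestin of neural progenitors, rose from low levels, to 193, 180.1 and 165 from 35.2, 56.8 and 45.4 normalized counts for TUBA1A and to 280.1, 292 and 280.0 from 47.6, 52.3 and 52.6 for NES. TUBA1A shares sequence with TUBA1B and TUBA1C, which had control means of 46557 and 14368 normalized counts.

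**Figure D4:**
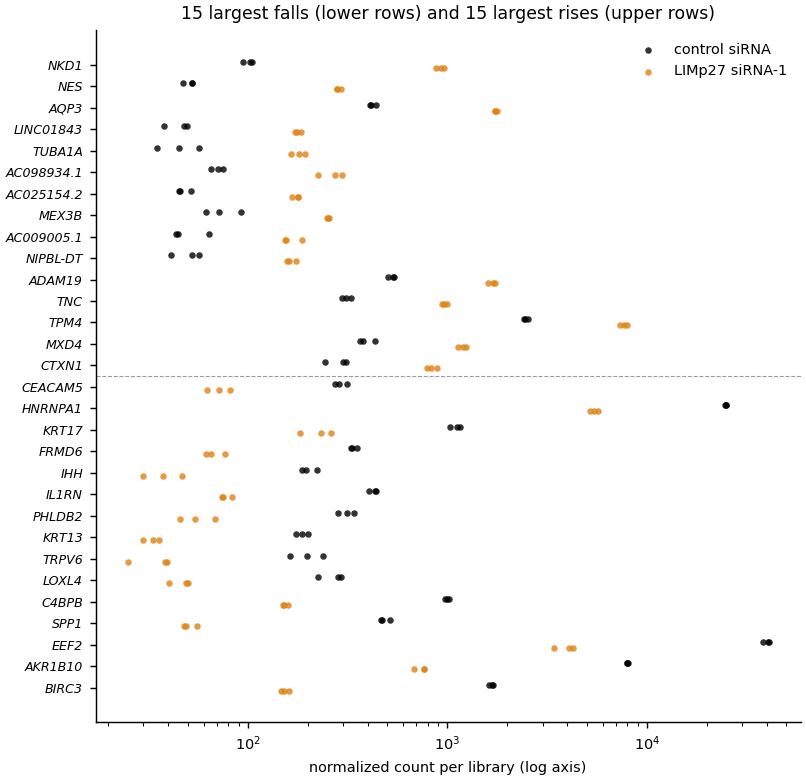
TMM-normalized counts (horizontal log axis) of the 15 genes with the largest falls (below the dashed line) and the 15 with the largest rises (above it) among called genes whose mean reached 100 and whose groups do not overlap, 1 point per library, 3 with control siRNA (black) and 3 with LIMp27 siRNA-1 (orange). HNRNPA1 and EEF2 have the highest counts of the falls and TPM4 of the rises.

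Genes of colon identity were lower in the majority, with 17 of 26 lower and 4 higher and a median log2 fold change of −0.45 (16 and 2 by DESeq2). Without control replicate 1, control replicate 3 or siRNA-1 replicate 3, 2 of them were higher. CEACAM5, the carcinoembryonic antigen, had 286, 314 and 274 normalized counts with control siRNA and 81.4, 71.8 and 62.5 with LIMp27 siRNA-1, and TSPAN8, a surface tetraspanin, had 8208, 8078 and 8191 normalized counts with control siRNA and 3633, 2978 and 3343 with LIMp27 siRNA-1. Their log2 fold changes were −2.03 (edgeR adjusted p = 5.1e-14) and −1.30 (edgeR adjusted p = 2.1e-18). The transcription factors HNF4A and HNF4G had log2 fold changes of −0.81 and −0.81, and GATA6 and KLF5, further factors of gut epithelium, had −0.77 and −0.54, all called lower. AQP3, a water and glycerol channel of the basal surface, was the exception with the largest change, with 408, 439.8 and 413 normalized counts with control siRNA and 1734, 1739 and 1782 with LIMp27 siRNA-1. Its log2 fold change was 2.06 ± 0.058 (SE, edgeR adjusted p = 5.7e-22). IHH, the hedgehog ligand of mature colonocytes, and TRPV6, the calcium channel of the apical surface, were among the largest falls, with log2 fold changes of −2.42 and −2.51.

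In a list of Wnt feedback and stem cell genes, 12 of 23 rose and 7 fell (14 and 5 by library size alone). NKD1, which binds Dishevelled and dampens the pathway, was the largest of the 15 rises in the plot of largest changes, with 94.1, 105 and 102 normalized counts with control siRNA and 874, 966 and 930.0 with LIMp27 siRNA-1. The factors ASCL2 and SP5, which mark intestinal stem cells and act downstream of Wnt, rose as well, ASCL2 with 161, 148 and 124 normalized counts with control siRNA and 439, 395 and 418 with LIMp27 siRNA-1 and SP5 at a log2 fold change of 1.38. AXIN2, the scaffold often used as a Wnt reporter, had 808, 825 and 826 normalized counts with control siRNA and 1151, 1137 and 1147 with LIMp27 siRNA-1, a log2 fold change of 0.48 (edgeR adjusted p = 1.3e-08). PROX1, another factor downstream of Wnt in colon tumors, had 89.0, 85.7 and 70.1 normalized counts with control siRNA and 189, 203 and 183 with LIMp27 siRNA-1 (log2 fold change 1.23). The receptors EPHB2 and EPHB3, which place cells along the crypt, rose, with log2 fold changes of 0.88 and 0.85. LGR5, the stem cell receptor for R-spondins, went the other way, with 1279, 1227 and 1405 normalized counts with control siRNA and 544, 563 and 536 with LIMp27 siRNA-1 (log2 fold change −1.25), as did its relative LGR4 (−0.78) and the Wnt target MYC (−0.59). NKD2, the close relative of NKD1, fell, with a log2 fold change of −0.66, and the ubiquitin ligases RNF43 and ZNRF3, which remove Wnt receptors, split at 0.19 and −0.18, both called.

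In the Notch pathway 8 of 19 genes fell and 7 rose, a balance that turned to 8 and 9 by library size alone. NOTCH2 had 1659, 1712 and 1596 normalized counts with control siRNA and 539, 681 and 665 with LIMp27 siRNA-1 (log2 fold change −1.39), the ligands JAG1 and JAG2 fell, at −0.85 and −1.02, and the DNA-binding partner RBPJ at −0.83. The targets HES1 and HEY1 rose, with log2 fold changes of 0.48 and 0.91, and NOTCH1 was not called (0.10). Ligands of the EGF receptor split as well. HBEGF and TGFA fell, with log2 fold changes of −0.89 and −0.45, and AREG and EREG, which lie side by side on chromosome 4, rose, at 0.36 and 0.74. EGFR itself fell, with a log2 fold change of −0.58, while ERBB2 and ERBB3 were not called (−0.085 and −0.022). Of 25 genes that read out ERK activity, 15 fell and 6 rose. CCND1, cyclin D1, had 7742, 8354 and 8101 normalized counts with control siRNA and 2228, 2362 and 2237 with LIMp27 siRNA-1, and the feedback genes SPRY2, SPRY4 and DUSP5 fell, with log2 fold changes of −0.42, −0.38 and −0.48. DUSP6 and ETV5, targets of the same kinase, were not called (−0.055 and 0.095), and ETV1 rose, with a log2 fold change of 0.99.

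RNA-binding proteins held members at both ends. HNRNPA1, a nuclear protein of splicing and transport, had 25073, 24594 and 24853 normalized counts with control siRNA and 5688, 5174 and 5429 with LIMp27 siRNA-1. The siRNA-1 mean was 21.9% of the control mean with no overlap, and the log2 fold change was −2.19 ± 0.045 (SE, edgeR adjusted p = 1.1e-25). HNRNPA1 has processed pseudogenes, so its count is uncertain. Its relatives HNRNPA2B1 and HNRNPA3 rose, with log2 fold changes of 0.38 and 0.50. The MEX3 family of RNA-binding ubiquitin ligases split, with MEX3A, MEX3B and MEX3D higher, with log2 fold changes of 1.54, 1.75 and 1.19, and MEX3C lower, at −1.22. MEX3A had 497, 547 and 474 normalized counts with control siRNA and 1523, 1471 and 1425 with LIMp27 siRNA-1. ZFP36L2, which speeds the decay of messages with AU-rich elements, had 2878, 3068 and 2559.5 normalized counts with control siRNA and 973, 827 and 950.0 with LIMp27 siRNA-1 (log2 fold change −1.63), while its relatives ZFP36L1 and ZFP36 had 0.16, called higher, and −0.046, not called. The stress granule proteins G3BP1 and G3BP2 moved apart, with log2 fold changes of −0.43 and 1.0, both called. Of 64 splicing factor genes 25 fell and 12 rose, and by library size alone 16 fell and 26 rose. In the machinery of RNA silencing, through which siRNAs act, 18 of 31 genes fell and 5 rose (18 and 2 by DESeq2, and 3 higher without control replicate 2 or siRNA-1 replicate 2), with TNRC6A at a log2 fold change of −0.84, DICER1 at −0.56, AGO2 at −0.22 and AGO1 at 0.41.

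Genes of apoptosis, signaling and protein turnover were divided. In the BCL2 family 7 of 20 genes rose and 7 fell, and DESeq2 called 5 higher and 4 lower. BMF, which promotes cell death, had a log2 fold change of 1.44, and MCL1, which protects, one of −0.32, both called. Without control replicate 1, 3 genes of the family were lower. Of 29 genes of caspases, death receptors and their inhibitors, 14 fell and 7 rose, and by library size alone 8 fell and 10 rose. FAS, a death receptor, fell, with a log2 fold change of −0.86, and the caspases CASP8 and CASP9 rose, at 0.53 and 0.60. Of 51 genes of ubiquitin ligases and their regulators, 23 fell and 4 rose (15 and 9 by library size alone). MDM2, the ligase that marks p53, had 1206, 1077 and 1161 normalized counts with control siRNA and 461, 446 and 402 with LIMp27 siRNA-1 (log2 fold change −1.40). COPS2, a subunit of the COP9 signalosome that controls cullin ligases, had 2395, 2427 and 2517 normalized counts with control siRNA and 719.9, 683 and 668 with LIMp27 siRNA-1, a log2 fold change of −1.83 ± 0.053 (SE, edgeR adjusted p = 9.0e-22). COPS7B of the same complex fell, with a log2 fold change of −0.53, and COPS3, COPS4, COPS5 and COPS8 were not called (−0.078, 0.15, −0.066 and −0.006). YWHAZ, an adaptor protein that binds phosphorylated partners, had 25587, 25236 and 26447 normalized counts with control siRNA and 10604, 10807 and 10907 with LIMp27 siRNA-1, a log2 fold change of −1.26 (edgeR adjusted p = 2.6e-20), and of its relatives SFN, YWHAH and YWHAB were lower (−0.55, −0.15 and −0.11) and YWHAQ, YWHAE and YWHAG higher (0.15, 0.17 and 0.25). The calls of YWHAH and YWHAB were lost by library size alone, where 2 of the 7 genes fell and 3 rose. FOXO1 and FOXO3, factors restrained by AKT, fell, with log2 fold changes of −1.03 and −0.83, while SESN3, one of their targets, rose, at 1.47, and ULK1, the kinase that starts autophagy, at 1.03. Of 61 autophagy and lysosome genes 22 rose and 18 fell.

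Chromatin regulators rose and fell in similar number, with 22 of 64 higher and 17 lower (29 and 10 by library size alone). DNMT3A, a de novo DNA methyltransferase, rose, with a log2 fold change of 0.85, while DNMT1 and DNMT3B fell, at −0.39 and −0.46. The histone deacetylase genes HDAC1, HDAC3 and HDAC7 rose, with log2 fold changes of 0.53, 0.33 and 0.26. In the polycomb complex, SUZ12 and EED fell, with log2 fold changes of −0.56 and −0.20, EZH1 rose, at 0.60, and EZH2 was not called (0.087). Of 26 nuclear receptor genes, 12 fell and 6 rose, with NR5A2, which acts in bile acid and steroid control, at a log2 fold change of −1.30 and NR2F1, a factor of development, at 1.26. The MYC antagonist MXD4 was among the largest rises, with 363, 376 and 434 normalized counts with control siRNA and 1202, 1136 and 1240.0 with LIMp27 siRNA-1 (log2 fold change 1.61).

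The plot of list balance sets the lists beside each other. Of 66 lists, 54 had more members lower than higher, and 42 by library size alone.

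**Figure D5:**
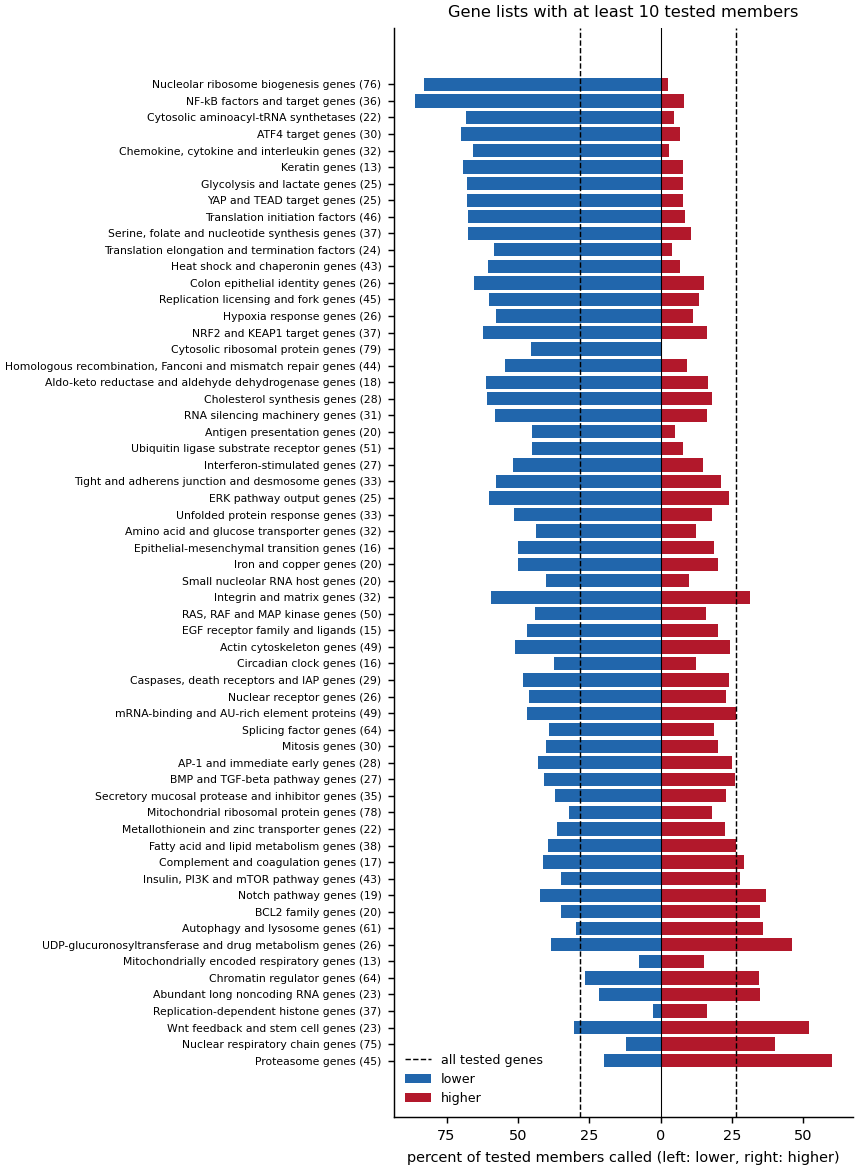
Percent of tested members called lower (left, blue) and higher (right, red) at an adjusted p under 0.05 from edgeR for each gene list with at least 10 tested members (number in parentheses); dashed lines mark 28.3% lower and 26.5% higher, the shares over all tested genes. NF-kB and nucleolar genes lie at the lower end and proteasome genes at the higher end.

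The direction of a change went with the level, length and kind of the gene, and the part of these in the lists above was not tested. In the fifth of genes with the lowest mean over the 6 libraries, 604 of 2870 rose and 199 fell, and the median log2 fold change was 0.22. In the fifth with the highest mean, 674 of 2870 rose and 1346 fell, with a median of −0.089. Genes of the shortest transcripts, up to 2256 bases, rose in 27.8% and fell in 12.3%, and those of the longest, from 7801 bases, in 22.5% and 38.6%. Long intergenic RNA genes rose in 32.1% of 446 and fell in 6.95%, and antisense RNA genes rose in 26.5% of 1044 and fell in 5.84%. Over all tested genes 26.5% rose and 28.3% fell, so by calls antisense genes differed in their falls alone. Their median log2 fold change was 0.27, against 0.00094 over all tested genes. How far the kind of gene follows its level was not tested. C2H2 zinc finger factors, many of which lie in clusters on chromosome 19, rose in 36.3% of 466 and fell in 16.1%, and all genes of chromosome 19 rose in 38.3% and fell in 14.9%.

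LIMp27 siRNA-2 was compared with LIMp27 siRNA-1 directly, on the 6 libraries of these siRNAs. Of 14415 genes tested, 23.1% were higher and 22.4% lower with LIMp27 siRNA-2 (45.4% in either direction). The genes below were chosen by their change with LIMp27 siRNA-1, whose libraries enter both tests, so the direction of the difference is in part fixed by the choice. On the log2 scale EEF2 was higher with LIMp27 siRNA-2 by 3.06 ± 0.061 (SE, edgeR adjusted p = 3.1e-26). HNRNPA1 and KRT17 were higher by 2.42 and 2.60, and AKR1B10 by 2.15, all called. Each difference of EEF2, HNRNPA1 and KRT17 was nearly as large as, or larger than, the fall against control siRNA. For SPP1, KRT13 and CEACAM5 no difference was called, at −0.34 ± 0.22 (SE, edgeR adjusted p = 0.21) for SPP1, −0.34 for KRT13 and 0.38 for CEACAM5. IL1RN and CXCL8 were lower still with LIMp27 siRNA-2, at −0.96 and −0.84. Among the rises, NKD1 was lower with LIMp27 siRNA-2, at −1.65, and TUBA1A at −1.85, while MEX3A and ASCL2 had differences of 0.059 and −0.12, not called. By list, 19 of 36 NF-kB genes and 35 of 76 nucleolar genes differed between the siRNAs, against 45.4% of all genes tested. Other lists lay further from that share. Of 25 YAP and TEAD genes 23 differed, with a median of 0.52 for LIMp27 siRNA-2 over LIMp27 siRNA-1. Of 45 proteasome genes 31 differed, with a median of −0.25. Of 44 genes of homologous recombination, the Fanconi pathway and mismatch repair, 13 differed.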

How the data were processed

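RNA-seq was measured in 9 libraries of WiDr cells, 3 per siRNA. The authors deposited raw read counts per gene and FPKM values (reads scaled by gene length and library size) in 1 table per siRNA against control siRNA, with fold changes and p-values of their own comparison, which were not used. The submitters' processing notes name CASAVA and build GRCh38. The aligner and counting program are not given in the sources used here, so how reads shared by related genes were assigned is unknown.

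Counts of the 6 libraries were tested with edgeR (4.0.16, R 4.3.3) by its quasi-likelihood test, two-sided, after TMM scaling and filterByExpr with a minimum count of 10, with Benjamini-Hochberg adjustment over all tested genes and a threshold of 0.05. A gene that passed is called higher or lower. Normalized counts are counts scaled by TMM to a common library size. Log2 fold changes are LIMp27 siRNA-1 over control siRNA, and the standard error was taken from the fold change and its F statistic. The procedure was tested on simulated data in which few genes changed, with rises and falls balanced. That setting does not test the scaling where many genes change. The depth per library was 14361629 to 21524623 counts, and 3 replicates per condition limit the precision. LIMp27 siRNA-2 was tested against LIMp27 siRNA-1 the same way.

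The comparison and the 66 gene lists were chosen with earlier results of these data known. In each list the 5 called members that changed most could be named where their mean reached 100 normalized counts, and so could the 15 largest rises and falls without overlap, LINC01356, CDKN1B, CDKN1A and further members where they complete a family or complex, also below that mean. Some of these further members were chosen after their values were seen. Lists were counted, not tested. Alternatives were RLE size factors, library size alone, DESeq2 (1.42.0), no filter, all 9 libraries in 1 fit, a replicate block, a 2-fold threshold and leaving out each library. Promoter letters were searched in the RefSeq promoter table with Python (3.11.15). Values of a few named genes are not reported here.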

Additional observations from a re-analysis of the deposited data

Results flagged for a closer look

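Of the 30 largest changes with LIMp27 siRNA-1, 25 differed between the siRNAs in the direct test of LIMp27 siRNA-2 against LIMp27 siRNA-1 (adjusted p under 0.05 from edgeR), where 45.4% of all tested genes did. The genes were chosen by their change with LIMp27 siRNA-1, whose libraries enter both tests, so a difference against that change is in part fixed by the choice. Values are log2 fold changes of LIMp27 siRNA-2 over LIMp27 siRNA-1.

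Of the 15 largest falls, 11 were higher with LIMp27 siRNA-2 and 1 was lower. The widest gaps were those of EEF2 (3.06), KRT17 (2.60), HNRNPA1 (2.42) and AKR1B10 (2.15). PHLDB2, which anchors microtubules at the cell cortex, followed at 1.70, with C4BPB at 1.40, BIRC3 at 1.26 and FRMD6 at 1.25. TRPV6, LOXL4 and IHH were higher by 0.93, 0.81 and 0.68. IL1RN was the exception, at −0.96.

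Of the 15 largest rises, 11 were lower with LIMp27 siRNA-2 and 2 were higher. TUBA1A was lower at −1.85, NKD1 at −1.65, ADAM19 at −1.35 and NES at −1.24. CTXN1, TPM4, AQP3 and TNC stood at −0.93, −0.82, −0.77 and −0.57. The noncoding genes AC025154.2, NIPBL-DT and AC009005.1 stood at −0.69, −0.39 and −0.36. MEX3B (0.27) and MXD4 (0.19) were higher still with LIMp27 siRNA-2.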

How the results depend on the processing

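At a threshold of at least 2-fold, 949 genes were called with LIMp27 siRNA-1 (627 higher and 322 lower) and 717 in the direct test of the siRNAs (265 higher and 452 lower with LIMp27 siRNA-2). Leaving out 1 library at a time gave 7203 to 7773 called genes against control siRNA and 5719 to 6396 between the siRNAs. Library size alone shifted the median gene by 0.094 on the log2 scale and turned the balance of 9 of the 66 lists, among them splicing factors, mitochondrial ribosomal proteins, caspases, Notch and 14-3-3 genes. The metallothionein and zinc transporter list also turned without control replicate 1 and without siRNA-1 replicate 2. Replicate numbers do not pair the libraries, since the correlations of same-numbered deviations were −0.0020, −0.0039 and −0.059, and not every library correlated best with its own number. With the replicate block 7668 genes were called in place of 7868 (6571 in place of 6550 between the siRNAs). DESeq2 called 6672. Of 311 genes picked by the size of their change or as targets of the study, 301 kept their direction and their side of the threshold under all 12 alternatives. Nearly all were picked from the main fit of the same libraries, so their holding is in part fixed by the choice. Among all 7868 called genes, 6819 were called the same way under library size alone. Members named only to complete a family are not among these 311. CDKN1B passed the threshold under library size alone. AGR2, B2M, HIST1H2AC, HIST1H2BD, HOTAIR, KRT20, SLC39A11 and YWHAH were among those that lost it under at least 1. Of the list counts, 90 moved by over 1.5 times, 33 of them under library size alone, and 1494 did not.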

Other observations

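Genes were also counted by the stem of their symbols, in 204 families of at least 8 tested genes. The families described here lie outside the lists and were chosen after their values were seen. Over all tested genes 26.5% rose and 28.3% fell. Of 12 tested protocadherin beta genes, which encode adhesion proteins of 1 cluster on chromosome 5, 11 rose and none fell, with a median log2 fold change of 1.17. PCDHB2 had 372, 421 and 388 normalized counts with control siRNA and 913, 948 and 893 with LIMp27 siRNA-1. PCDHB13 had 82.8, 89.1 and 99.0 normalized counts with control siRNA and 227, 228 and 262 with LIMp27 siRNA-1, a log2 fold change of 1.41 (edgeR adjusted p = 9.7e-11). These genes are near-identical copies, so reads could be shared between them. Of 14 genes of intraflagellar transport, the traffic that builds cilia, 10 rose and 1 fell, with a median of 0.65. IFT22 had 228, 205 and 224 normalized counts with control siRNA and 521, 523 and 482 with LIMp27 siRNA-1, and IFT20 was the gene that fell, at −0.26. Of 21 genes with the stem NUP, mostly nucleoporins, 18 fell and none rose, with a median of −0.24. In the direct test of the siRNAs, 11 of the 14 intraflagellar transport genes differed, with a median of −0.37 for LIMp27 siRNA-2 over LIMp27 siRNA-1. So did 10 of the 21 NUP genes and 4 of the 12 protocadherin genes, against 45.4% of all genes tested.

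Further lists are given by their counts. Over all tested genes 28.3% fell and 26.5% rose, and in the fifth with the highest mean 46.9% fell and 23.5% rose. The part of level in the counts here and in the next paragraph was not tested. Of 44 genes of homologous recombination, the Fanconi pathway and mismatch repair, 24 fell and 4 rose (19 and 8 by library size alone). Of 33 genes of the unfolded protein response, 17 fell and 6 rose. Of 50 genes of RAS, RAF and MAP kinases, 22 fell and 8 rose (18 and 13 by library size alone). Of 28 immediate early genes, 12 fell and 7 rose. Of 27 genes of BMP and TGF-beta signaling, 11 fell and 7 rose, and by library size alone 8 fell and 8 rose. Of 16 genes of epithelial-mesenchymal transition, 8 fell and 3 rose. Of 16 circadian clock genes, 6 fell and 2 rose, and 1 rose under DESeq2, without control replicate 1 or 3 and without siRNA-1 replicate 3. Of 20 iron and copper genes, 10 fell and 4 rose. Of 32 amino acid and glucose transporter genes, 14 fell and 4 rose. Of 45 genes of replication licensing and forks, 27 fell and 6 rose (13 and 9 by library size alone), and of 30 mitosis genes 12 fell and 6 rose. Of 49 mRNA-binding proteins, 23 fell and 13 rose. Of 18 aldo-keto reductase and aldehyde dehydrogenase genes, 11 fell and 3 rose. Of 15 genes of the EGF receptor family and its ligands, 7 fell and 3 rose. Of 20 small nucleolar RNA host genes, 8 fell and 2 rose (6 and 4 by library size alone).

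Other lists had more even counts or turned with the scaling. Of 38 fatty acid and lipid genes, 15 fell and 10 rose. By library size alone 15 fell and 15 rose, DESeq2 and leaving out control replicate 1 each gave 6 higher, and leaving out control replicate 2 gave 5. Of 43 genes of insulin, PI3K and mTOR signaling, 15 fell and 12 rose, and by library size alone 12 fell and 13 rose. Of 35 secreted protease and inhibitor genes, 13 fell and 8 rose, against 12 and 13 by library size alone. Of 22 metallothionein and zinc transporter genes, 8 fell and 5 rose, and by library size alone 4 fell and 7 rose. In that list 4 were lower under DESeq2, without control replicate 1 and without siRNA-1 replicate 1, and 5 without control replicate 2 or siRNA-1 replicate 2. Of 23 abundant long noncoding RNA genes, 8 rose and 5 fell. By library size alone 11 rose and 2 fell, and without control replicate 3 or siRNA-1 replicate 3 the number lower was 3. Of 37 replication-dependent histone genes, 6 rose, 1 fell and 30 were not called. The share that rose was 16.2%, against 26.5% of all tested genes, and the median log2 fold change was −0.067. DESeq2, leaving out control replicate 2 and leaving out siRNA-1 replicate 3 each gave 3 higher. None was lower without control replicate 1 or siRNA-1 replicate 2, 3 were without control replicate 2 and 2 without siRNA-1 replicate 3. Of 5 enteroendocrine and goblet cell genes, 4 fell and 1 rose, and 2 fell by DESeq2 or library size alone.

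CDKN1B, which encodes the cell cycle inhibitor p27, had 853, 942 and 849 normalized counts with control siRNA and 913, 900.4 and 946 with LIMp27 siRNA-1. The groups of CDKN1B were not called different, at a log2 fold change of 0.063 (edgeR adjusted p = 0.38), though it passed the threshold under library size alone. The study, by contrast, reports that CDKN1B rose with LIMp27 knockdown in this RNA-seq, for which it used both siRNAs. It also reports the rise by qPCR in WiDr cells, and a rise of p27 protein. CDKN1A, which encodes the related p21, had 1732, 1708 and 1672 normalized counts with control siRNA and 613, 686 and 687 with LIMp27 siRNA-1 (log2 fold change −1.36).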
